A study of Drosophila melanogaster with 3 samples.

Results

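The small heat shock genes of Drosophila melanogaster, together with the Hsp90 gene Hsp83 and the heat shock factor gene Hsf, were examined for binding of CG1602 in embryos. The 9 genes were Hsp22, Hsp23, Hsp26, Hsp27, Hsp67Ba, Hsp67Bb, Hsp67Bc, Hsp83 and Hsf, of 17947 annotated genes. They were chosen by name, with earlier results of these data known. A region counted for a gene when its summit, the position of highest enrichment, lay inside the gene or within 2 kb of one of its transcription start sites (TSS). The annotation lists Hsp67Bb as CG4456 (FBgn0001228), and it was found through its synonym. All 9 were found.

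The data were 1 group of 3 biological replicates of chromatin immunoprecipitation with sequencing (ChIP-seq). Whole embryos of mixed sex, aged 0 to 24 h, came from a transgenic line that stably expresses CG1602 with green fluorescent protein (GFP) at its C terminus, and an antibody against GFP precipitated the fusion protein. There was no second genotype, age or treatment, and the labels name no heat treatment. Binding is therefore an average over all embryonic cell types and stages. The authors' lists held 17580, 27164 and 18386 regions for replicates 1, 2 and 3, which include background, and 16640 regions for the pooled replicates. Their list filtered by irreproducible discovery rate (IDR) held 4599 regions, and these were the 4599 strongest pooled regions. The sequencing depth is unknown. The signal of a region was set by the authors, in units they do not state, so signals were compared only within a list.

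Small heat shock proteins bind unfolding proteins and keep them from aggregating until chaperones that use ATP can refold them. Hsp27 is mostly nuclear, Hsp23 and Hsp26 are cytosolic, and Hsp22 sits in the mitochondrial matrix. Several of these genes are also transcribed without stress, during development and in response to ecdysone. Hsp83 encodes Hsp90, an abundant chaperone that matures signalling proteins. Hsf encodes the transcription factor that binds heat shock elements, alternating inverted units of GAA and TTC, and the GAGA factor, product of Trl, keeps heat shock promoters accessible. Of the 67B genes, the one called Hsp67Bb lacks the domain that defines small heat shock proteins.

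Binding fell on 5 IDR regions, 3 in the 67B cluster and 2 at Hsp83. The reference sequence at the 3 strongest is shown for 201 bp around the pooled summit (RefSeq copy of the Release 6 assembly, dm6), on the strand of the gene. Capitals run from the lowest to the highest summit of the pooled list and the 3 replicates, so they show how closely the replicates placed the site. Hsp27 is at chr3L:9383801-9384001 on the plus strand, Hsp83 intron at chr3L:3194147-3194347 on the plus strand, and Hsp26 at chr3L:9377473-9377673 on the minus strand.
Hsp27: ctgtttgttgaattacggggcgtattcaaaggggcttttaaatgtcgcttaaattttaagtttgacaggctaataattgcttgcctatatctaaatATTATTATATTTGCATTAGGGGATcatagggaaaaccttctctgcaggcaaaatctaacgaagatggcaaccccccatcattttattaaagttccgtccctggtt
Hsp83 intron: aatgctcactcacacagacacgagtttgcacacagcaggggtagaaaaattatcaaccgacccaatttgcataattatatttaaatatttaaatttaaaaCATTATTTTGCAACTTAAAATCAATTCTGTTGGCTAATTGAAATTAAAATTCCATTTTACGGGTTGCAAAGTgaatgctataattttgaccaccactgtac
Hsp26: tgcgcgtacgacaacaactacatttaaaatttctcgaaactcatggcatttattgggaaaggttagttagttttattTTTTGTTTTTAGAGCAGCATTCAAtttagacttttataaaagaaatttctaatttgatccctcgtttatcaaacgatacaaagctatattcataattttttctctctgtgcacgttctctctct

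The weakest of the 5 summits, at Hsp22 (chr3L:9373564-9373593, plus strand), is shown in the same way. For the other Hsp83 region an element of 2 heat shock units inside it is shown in capitals (chr3L:3193137-3193166, plus strand). The only exact element of 3 units in the cluster, also in capitals, lies upstream of Hsp23, the cluster gene with no IDR region (chr3L:9381469-9381498, plus strand).
Hsp22: atatatCTCAAGTTCTTGACTACacccatg
Hsp83 promoter element: agaagcctctaGAAGTTTCtagagacttcc
Hsp23 element: gcagtctcGAAGTTTCGCGAAtttactcca

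Of the 9 genes, 7 had an IDR region, and among all 13968 protein-coding genes 30.3% had one. The 7 were Hsp22, Hsp26, Hsp27, Hsp67Ba, Hsp67Bb, Hsp67Bc and Hsp83. These genes are close neighbours and shared regions, so the count of genes exceeds what was bound: 1 region served Hsp22, Hsp67Bb and Hsp67Bc, and another served Hsp26 and Hsp67Ba. With the IDR summit within 500 bp of a TSS, 4 of the 9 remained (Hsp22, Hsp26, Hsp27 and Hsp83), against 20.4% of coding genes. In the longer pooled list 8 of the 9 had a region, which adds Hsf, against 59.9% of coding genes. The same 8 had a region in all 3 replicate lists, against 49.6% of coding genes. No test was made of these counts, since neighbouring genes that share regions are not independent. The 9 genes were also chosen with earlier results of these data known.

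Hsp27 held the strongest of the 5 sites. Its region (chr3L:9383754-9384056) had a pooled signal of 881.0 and ranked 107 of the 16640 pooled regions. The summit, at 9383901, lay 162 bp upstream of the single Hsp27 TSS (FBgn0001226, chr3L:9384063-9385694, plus strand) in sequence outside any gene. In the replicate lists the signals were 331.7, 199.3 and 342.8, and the ranks were 89, 108 and 137. The ranks lie at 0.550 ± 0.178% of the list length (mean ± SD, n = 3), near the top of every list. The 4 summits, pooled and replicate, fell within 23 bp. By its strongest pooled region, Hsp27 was the 174th of 8360 coding genes with a pooled region.

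Hsp83 held 2 IDR regions, which 8.23% of coding genes matched or exceeded (1150 of 13968). The stronger region (chr3L:3194169-3194369) had its summit at 3194247, in the intron that both annotated Hsp83 transcripts share, 1031 bp downstream of the Hsp83-RA TSS (FBgn0001233, chr3L:3192969-3197059, plus strand). Its pooled signal was 394.0, rank 634, and its replicate signals were 122.4, 93.1 and 162.2, with ranks of 786, 658 and 694. The summits spread over 71 bp, the widest of the 5 sites.

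The weaker Hsp83 region (chr3L:3192851-3193266) covered both start sites. Its summit at 3193059 lay in the 5′ UTR of the longer transcript, Hsp83-RB, 90 bp downstream of that TSS and 157 bp upstream of the Hsp83-RA TSS. The pooled signal was 191.6, rank 2207. The replicate signals were 45.3, 53.1 and 95.6, with ranks of 3503, 1817 and 1775. Replicate 1 ranked this promoter region lower than the other two did, and its mean standing of 12.1 ± 6.95% (SD, n = 3) was the most variable of the 5. The intron signal was 2.70, 1.75 and 1.70 times the promoter signal in replicates 1, 2 and 3, on the authors' scale (mean 2.05 ± 0.565, SD, n = 3). The strongest signal at Hsp83 was thus inside the gene and not at its start.

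The Hsp26 region (chr3L:9377365-9377780) had a pooled signal of 327.4 and ranked 926. Its summit at 9377573 lay 146 bp upstream of the outer Hsp26 TSS (FBgn0001225, chr3L:9376418-9377427, minus strand), between Hsp26 and Hsp67Ba. The replicate signals were 119.8, 86.8 and 114.1, with ranks of 817, 774 and 1316, and the summits fell within 23 bp. Hsp67Ba, which encodes another small heat shock protein, owes its region to this summit. The summit is 1961 bp downstream of the Hsp67Ba TSS and just past the 3′ end of that gene (FBgn0001227, chr3L:9377802-9379534, minus strand), inside the 2 kb limit by a small margin. No region had Hsp67Ba as its nearest start site.

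The region at Hsp22 (chr3L:9373373-9373788) was the weakest of the 5, with a pooled signal of 141.9 and rank 3292. Its summit at 9373581 lay 416 bp upstream of the Hsp22-RB TSS and 650 bp downstream of the Hsp22-RA TSS (FBgn0001223, chr3L:9372931-9374964, plus strand). It is in the 5′ UTR of Hsp22-RA and also in the 3′ UTR of 2 transcripts of Hsp67Bb, since these genes overlap. The replicate signals were 48.3, 29.5 and 55.6, with ranks of 3247, 4309 and 3653. The standing of 18.1 ± 2.03% (SD, n = 3) was steady, and the summits fell within 16 bp, the narrowest spread of the 5. Hsp67Bc (FBgn0001229, chr3L:9371511-9372497, minus strand), whose product works with the cochaperone Starvin in clearing damaged proteins, has its TSS 1084 bp from the summit and reads away from it.

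**Figure D1:**
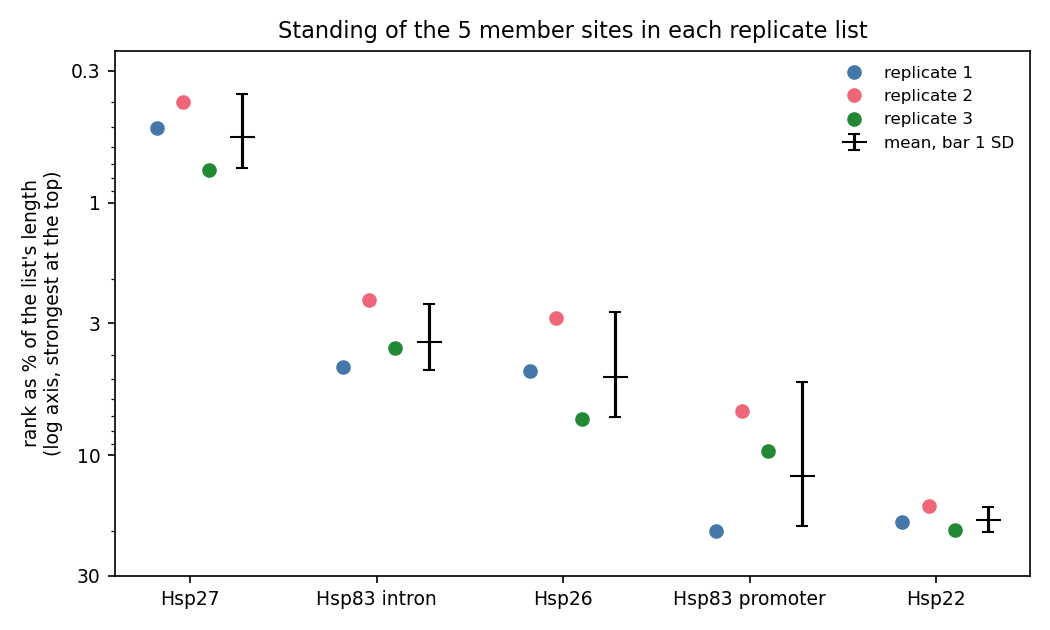
Rank of the 5 sites as a percentage of each replicate list's length (log axis, strongest at the top), with coloured points for replicates 1, 2 and 3 and the mean ± SD in black. Hsp27 stands near 0.550% and apart from the rest, while the replicate points of neighbouring sites overlap from Hsp83 intron to Hsp22.

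**Figure D2:**
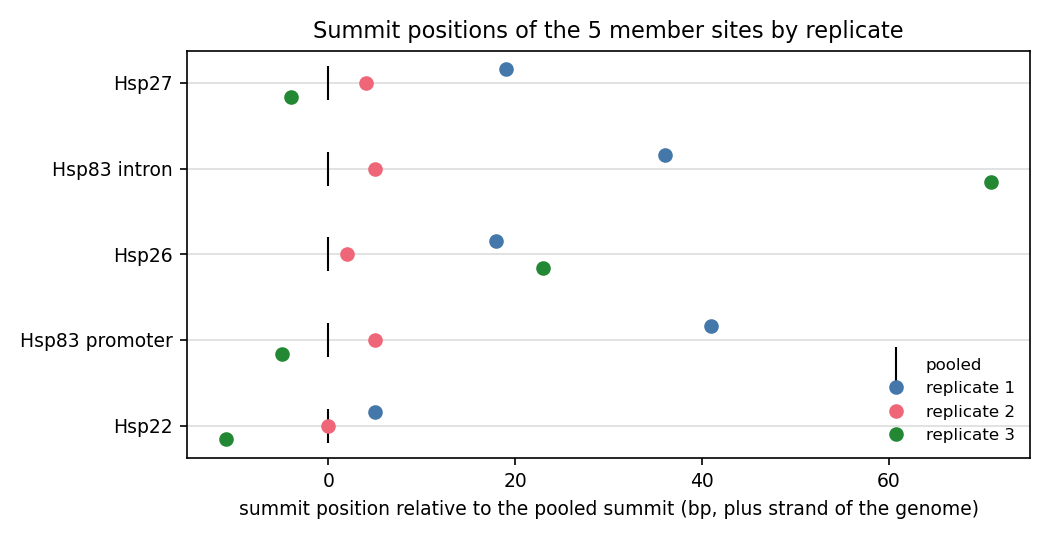
Position of each replicate's summit relative to the pooled summit (horizontal axis, bp, plus strand of the genome), with one row for each site and one colour for each replicate. The summits at Hsp22 span 16 bp and those in the Hsp83 intron span 71 bp.

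Standing here is rank as a percentage of list length, and its range was taken over the 3 replicates, whose lists differ in length. Among neighbours in the order of the 5 sites, only the first pair had standings that did not overlap. The Hsp27 signal was 2.71, 2.14 and 2.11 times that of the Hsp83 intron in replicates 1, 2 and 3, and the ranges of their standings did not overlap. The Hsp83 intron signal was 1.02, 1.07 and 1.42 times that of Hsp26, higher in 3 of 3 replicates but with overlapping ranges. The Hsp26 signal was 2.65, 1.64 and 1.19 times that of the Hsp83 promoter, again higher in 3 of 3 with overlap. That overlap is between different replicates and depends on list length. The ranks themselves, 817, 774 and 1316 against 3503, 1817 and 1775, did not overlap. The Hsp83 promoter exceeded Hsp22 in 2 of 3 replicates, with ratios of 0.938, 1.80 and 1.72, so these neighbours could not be ordered. Sites farther apart did separate: the standings of the Hsp83 intron (2.42 to 4.47%) did not overlap those of the Hsp83 promoter (6.69 to 19.9%), and neither the intron nor Hsp26 (2.85 to 7.16%) overlapped Hsp22 (15.9 to 19.9%). From end to end, the Hsp27 signal was 6.87, 6.75 and 6.17 times that of Hsp22 (mean 6.59 ± 0.377, SD, n = 3).

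Hsp23 had neither an IDR nor a pooled region (FBgn0001224, chr3L:9381882-9382765, plus strand). Replicate 2 alone listed one, at chr3L:9381352-9381771, with its summit 320 bp upstream of the TSS. Its signal was 13.4, its rank was 13805 of 27164 and its −log10 q was 0.406, as deposited. Replicate 2 has the longest list, and the other 2 replicates listed no region there. The Hsp27 summit lies 2019 bp downstream of the Hsp23 TSS, just outside the 2 kb limit. Hsp23 and Hsp67Ba thus fall on either side of the limit by small margins, although neither has an IDR summit near its own TSS.

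**Figure D3:**
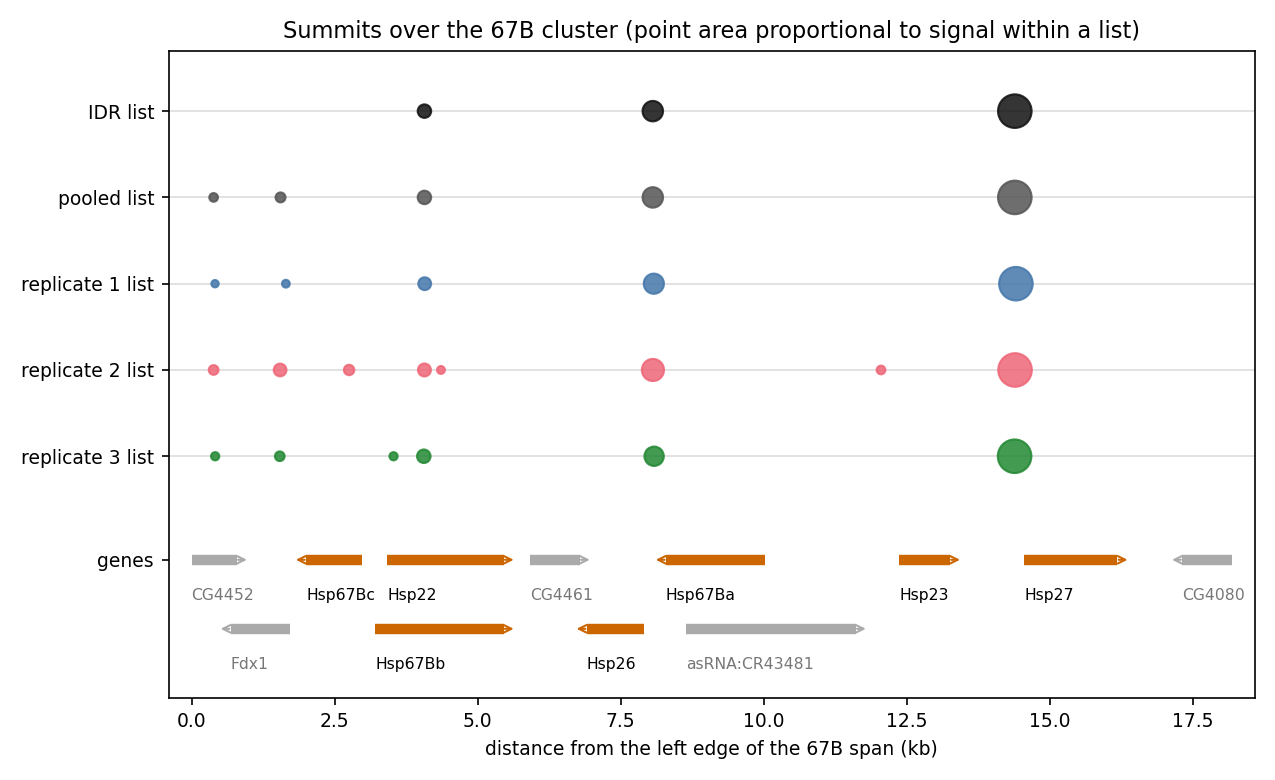
Summits of the 5 lists over the 67B span, in kb from its left edge, with point area proportional to signal within each list and arrows for the direction of genes (members in orange, other genes in grey). The same 3 sites, at Hsp22, Hsp26 and Hsp27, appear in every list, and replicate 2 has the most summits, 8.

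Across the 67B cluster, 18.2 kb from 2 kb left of Hsp67Bc to 2 kb right of Hsp27 (chr3L:9369511-9387694), there were 3 IDR and 5 pooled regions. The replicate lists held 5, 8 and 6 regions there. The IDR summits were 3992 bp apart between Hsp22 and Hsp26 and 6328 bp apart between Hsp26 and Hsp27. The 3 sites sit upstream of Hsp22-RB, Hsp26 and Hsp27, and the map shows the stretch around Hsp67Ba and Hsp23 between the last 2 without an IDR summit. Per 10 kb the cluster held 1.65 IDR regions, against 0.5 in the 20 kb to its left, 0 in the 20 kb to its right and 0.352 over the whole of arm 3L. Start sites are also dense here, with 12 of coding genes in the span. Per 10 such start sites the cluster held 2.5 IDR regions and the arm 2.66, so by that measure the cluster was close to the arm. The 20 kb to its left held 0.909 per 10 start sites and the 20 kb to its right 0, both below the cluster.

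The 2 pooled regions of the cluster below the IDR list both had the TSS of Fdx1, which encodes a mitochondrial ferredoxin, as their nearest. One, at chr3L:9370858-9371273, had its summit 8 bp from the Fdx1 TSS, a pooled signal of 77.2 and rank 6782, and stands within 2 kb of Hsp22, Hsp67Bb and Hsp67Bc. Its replicate ranks were 12797, 4538 and 8426, a wider range than at any of the 5 sites. The other had a signal of 58.8 and rank 9409, and its summit lay inside CG4452, beyond the 3′ end of Fdx1. Both were listed in all 3 replicates. Further weak summits were listed by single replicates. Replicate 2 had one 233 bp inside Hsp67Bc, with signal 19.2 and rank 7884, and one 127 bp upstream of the Hsp22-RB TSS, with signal 11.1 and rank 19233. Replicate 3 had one 110 bp downstream of the start site that Hsp22 and Hsp67Bb share, with signal 20.5 and rank 14316. No summit inside the span had the TSS of CG4452, CG4461 or CG4080 as its nearest coding one, and none fell inside the noncoding RNA gene asRNA:CR43481.

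Heat shock elements were not centred on the CG1602 summits. The element of 2 units was searched as GAANNTTC and TTCNNGAA on both strands, and occurred within 100 bp of the summit at Hsp26 and at the Hsp83 promoter, 2 of the 5 sites, against 10.96% of the 4599 IDR summits. At Hsp26 there were 2 such elements, the nearer one starting 25 bp from the summit. At the Hsp83 promoter there was 1, starting 89 bp from the summit, which is printed above. Neither the Hsp27 nor the Hsp22 nor the Hsp83 intron window held one. In the 250 bp before the 12 distinct start sites of the 9 genes, the 2-unit element was found at 7, against 13.2% of 19276 promoters of coding genes. Several of these windows overlap: both Hsp26 start sites share sequence, and the divergent Hsp67Bb and Hsp67Bc promoters share 1 element.

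The element of 3 units, GAA and TTC alternating with 2 free letters between them, was at 0 of the 12 start sites, against 0.348% of promoters. With 1 mismatch allowed, a setting chosen after seeing the data, it was at 5 of the 12, against 6.85% of promoters. The exact element printed for Hsp23 begins 405 bp upstream of that TSS and 2424 bp from the nearest IDR summit, at Hsp27. It lies within the weak region that replicate 2 alone listed. The nearest element to the Hsp27 summit, with 1 mismatch, starts 181 bp away, between the summit and Hsp23. At the 67B cluster as a whole 15 matches with up to 1 mismatch were found, some of them overlapping, and 1 started within 100 bp of an IDR summit. Over Hsp83 and 2 kb on each side there were 16, and 4 of them started within 100 bp of an IDR summit, 79 to 94 bp from that of the promoter. These 4 overlap in a single run from 3193138 to 3193165, so matches are not separate elements. Among all 4599 IDR windows, 5.83% held such a match. A match here is a run of letters in the reference genome and does not show occupancy by the heat shock factor.

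Other motifs were searched in the same windows, on both strands. GAGAG, the core of GAGA factor sites, was within 100 bp of the Hsp26 and Hsp22 summits, with 3 matches each, some of them overlapping, against 19.7% of IDR summits. It preceded 5 of the 12 start sites, against 29.1% of promoters. TATAAA, as in a TATA box, preceded 10 of the 12 start sites, against 39.6% of promoters, and began 27 to 30 bp before the TSS at Hsp22-RB, Hsp23, Hsp27, Hsp67Bc, Hsp83-RA and the inner Hsp26 start site. TATCGATA, the core of the DNA replication-related element, was at 1 of the 12, 182 bp before the Hsp83-RB TSS, against 6.89% of promoters. It was at none of the 5 sites, against 3.33% of IDR summits. CACTGAGA was at none of the 5 sites, against 4.09% of IDR summits, and at none of the 12 start sites, against 0.794% of promoters. The GC content of the 201 bp windows was 37.3% at Hsp27, 31.3% in the Hsp83 intron, 30.8% at Hsp26, 44.3% at the Hsp83 promoter and 30.3% at Hsp22, against 34.0 ± 6.31% over all IDR summits (mean ± SD over 4599 windows). The Hsp83 promoter window was richer in GC than most, with 93.9% of IDR windows at or below it. The longest run of letters that any pair of the 5 windows shared was 11 bp, between the Hsp83 intron and promoter, and 12 of the 4599 IDR windows (0.261%), these included, held that run.

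Hsf itself (FBgn0001222, chr2R:18130303-18134634, minus strand) had no IDR region. Its single pooled region lay in an intron, 779 bp downstream of the TSS, with a signal of 51.3, a rank of 11368 of 16640 and a −log10 q of 0.279. The overlapping replicate regions ranked 14611, 12904 and 12648. Replicates 1, 2 and 3 also listed summits 833, 717 and 534 bp upstream of the TSS, with signals of 15.3, 16.2 and 24.4. These stood at 98.4%, 37.5% and 57.4% of the length of their lists, so replicate 2 placed its summit above the middle of its list and replicates 1 and 3 below it. Hsf stood 6983rd of the 8360 coding genes with a pooled region.

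**Figure D4:**
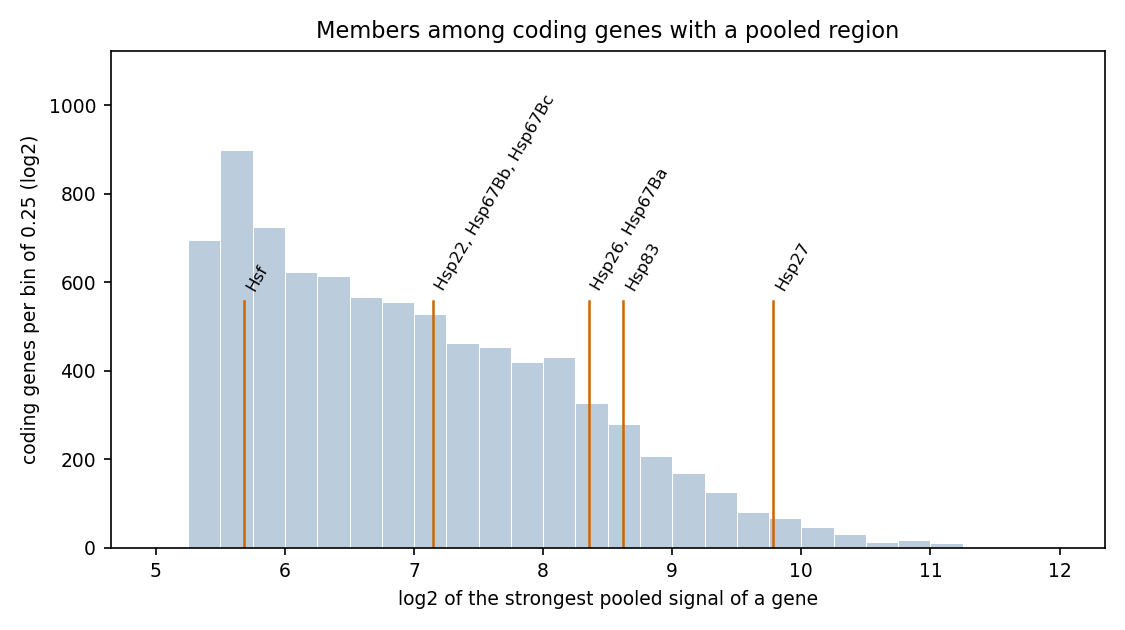
Number of coding genes (vertical axis) by log2 of their strongest pooled signal (horizontal axis), for the 8360 coding genes with a pooled region, with orange lines for the members. Hsp27 stands in the upper tail at 881.0, and Hsf in the bulk of weak genes at 51.3; Hsp23 has no region and is not drawn.

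Among all coding genes, the members thus ranged widely by their strongest pooled region. Hsp83 was 904th, at a share of 6.47% of all coding genes, Hsp26 and Hsp67Ba shared place 1241 (8.88%), and Hsp22, Hsp67Bb and Hsp67Bc shared place 3361 (24.1%). Hsp27 stood at 1.246% and Hsf at 50.0%. The median strongest pooled signal was 225.7 for coding genes with an IDR region and 109.5 for those with any pooled region. Hsp27, Hsp83, Hsp26 and Hsp67Ba lay above the first of these medians, and Hsp22, Hsp67Bb and Hsp67Bc lay below it. The regions next in strength to the Hsp27 site were nearest to Rme-8, which encodes an endosomal protein with a J domain (pooled signal 887.1), and to mub, which encodes an RNA-binding protein (879.4). Those next to the Hsp83 intron were nearest to CycE, the gene of cyclin E (394.3), and Cyt-c-p, a cytochrome c gene (393.9). Around the Hsp26 site stood CG4860 (327.7) and CG6962 (327.4), around the Hsp83 promoter sky (191.6) and drongo (191.5), and around the Hsp22 site CG8519 and fog (both 141.9). Likeness here is pooled signal alone.

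The nearest other start sites put each site in its setting. The Hsp27 summit lies between Hsp23, 2019 bp to its left, and CG4080, whose TSS is 15326 bp to its right. The Hsp26 summit has the TSS of CG4461, another small heat shock protein gene, 2143 bp to its left and that of Hsp67Ba to its right. CG4461 is also the right-hand neighbour of the Hsp22 site, 1849 bp away. At Hsp83 the left neighbour is CG14965, 568 bp from the promoter summit and 1756 bp from the intron summit. The right neighbour is CG14966, at 4572 and 3384 bp from these summits. Both Hsp83 sites are thus closest to Hsp83 itself.

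Other chaperone genes and genes of heat shock regulation gave a mixed picture. By the same rule, 23 of the 58 genes found from 6 lists (39.7%) had an IDR region, against 30.3% of coding genes. The list of heat shock regulation, which is not a list of chaperones, gave 8 of these 23 from 10 of the 58 genes. In the other lists the share ran from 15.4% (Hsp70 family) to 44.4% (Hsp40 and Hsp70 cochaperones), on both sides of the coding share. Of 6 other small heat shock genes, 2 had one: CG14207 (signal 159.9) and CG4461, through the region at Hsp22 (141.9). In the Hsp70 family it was 2 of 13, both constitutive members: Hsc70-5, the mitochondrial one (427.9), and Hsc70-4, the main cytosolic one (388.6). The 6 stress-inducible Hsp70A and Hsp70B genes had no pooled region either. They are near-identical copies, and how reads that match several copies were treated is not stated, so the absence of a region there is uncertain.

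Of 9 Hsp40 and other Hsp70 cochaperone genes, 4 had an IDR region. They were mrj (589.2), DnaJ-H (490.5), stv, which encodes Starvin (363.0), and Droj2 (117.1). Of 7 genes found of the Hsp90 family and its cochaperones, with 2 further names not matched in the annotation, 3 had one: Gp93, the Hsp90 of the endoplasmic reticulum (251.9), nudC (241.0) and CG1416 (177.5). All 3 were below the Hsp83 intron in signal. Of 13 chaperonin genes, 4 had one, CCT8 (290.1), CG11267 (277.9), CCT3 (253.2) and CCT5 (179.3). In the list of heat shock regulation 8 of the 10 genes found had one, and 2 further names were not matched. This list includes 1 noncoding gene, while the share it stands beside is of coding genes. Its strongest were Trl, the GAGA factor gene (signal 1357, rank 32), TH1, which encodes a subunit of the pausing factor NELF (477.9), the heat-inducible noncoding RNA gene lncRNA:Hsromega (339.6) and Nelf-E (289.6). At Trl the summit was in an intron, 1536 bp downstream of the nearest TSS of the gene. At Hsromega it was in an exon, 214 bp downstream of the nearest TSS of the gene. At TH1 and Nelf-E it was within 100 bp upstream of the TSS. No test was made between these lists.

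**Figure D5:**
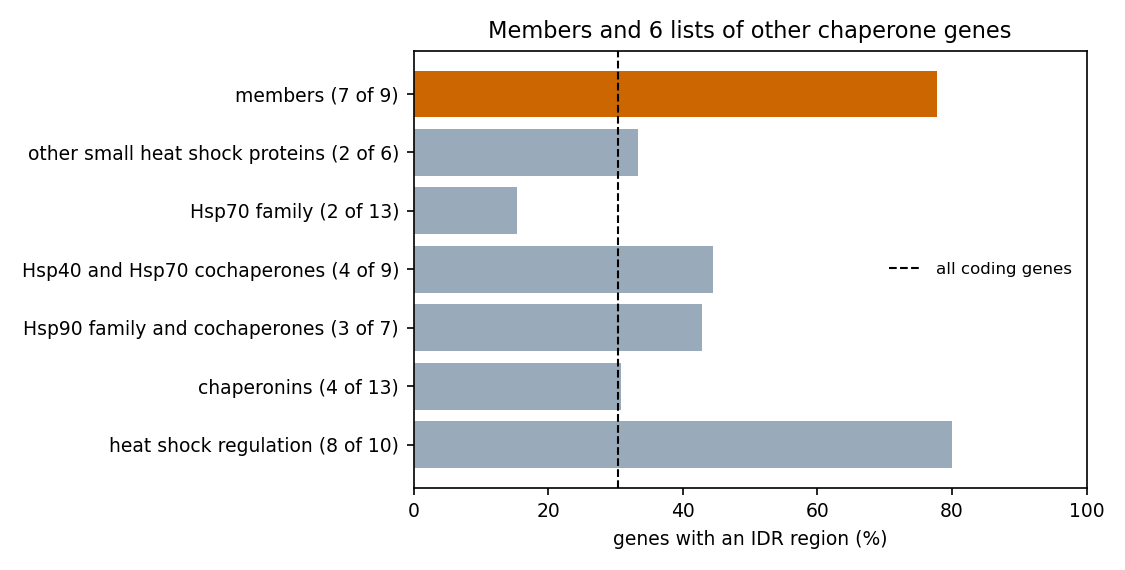
Share of genes with an IDR region (horizontal axis, percent) for the members, in orange, and 6 lists of other chaperone and heat shock genes, with the share of all coding genes, 30.3%, as a dashed line. The members and the heat shock regulation list (8 of 10) stand highest, and the Hsp70 family (2 of 13) lowest; members that share a region are counted separately.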

How the data were processed

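ChIP-seq of CG1602-GFP in embryos was read from 5 lists on dm6: 1 for each of the 3 replicates, 1 pooled and 1 filtered by IDR. One control served all replicates, per the file headers, and replicate lists came from single alignments. The signal of each region was deposited by the authors, relative to that control. The q-value, as −log10, was also deposited by the authors and has a ceiling that many regions share (3.84 in the IDR list), so it was printed for weak regions and not used for ranking. For the aligner, the peak caller and the IDR cutoff, names and settings are not stated in these sources. Lists on dm3 were not used.

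Genes came from Ensembl release 115 and sequence from the RefSeq copy of the same assembly. Pseudogenes and transposable elements were left out. Regions were assigned by summit, ranked by signal within a list, and described with no test, since there was 1 group. The assignment was checked on simulated regions. Python 3.11.15, numpy 2.4.6 and pandas 2.3.3 were used, with matplotlib 3.10.9 for plots. The members, gene lists, motifs and alternatives were chosen with earlier results of these data known. Named genes were all 9 members, genes in the 67B span, the nearest other TSS on each side of an IDR site, up to 4 genes with the strongest IDR region from each list, and genes nearest to the pooled regions just above and below each site in signal. Alternatives changed the TSS window, overlap rule, list length, replicates and cluster span.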

Additional observations from a re-analysis of the deposited data

How the results depend on the processing

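Counts of members and regions were recomputed with other TSS windows, overlap rules, shorter lists and each replicate left out. Of the alternative values, 47 stayed within 1.5 times of those reported and 9, given below, did not. The 47 include falls from 7 to 5 members with an IDR region, at 500 bp and at 1 kb from a TSS with gene bodies still counted. Counts of members cannot exceed 9, so looser rules could not move 7 or 8 by 1.5 times. With every region given to 1 gene, by nearest TSS, 4 of the 9 genes had an IDR region, 5 had a pooled region and 5 had a region in all 3 replicate lists, because shared regions then count once. In the IDR list cut to its stronger 50% by signal, 4 of the 9 genes had a region. Of the 5 pooled regions over the 67B cluster, 3 remained with no added sequence on either side. With each replicate left out in turn, a region had to overlap one of the 4599 strongest of both other replicates, and again 3 remained. The sites at Hsp22, Hsp26 and Hsp27 ranked within 4599 in every replicate list, so the regions lost were those with the Fdx1 TSS nearest. With up to 1 mismatch in the 3-unit heat shock element, 5 start sites had one instead of 0. The standing of each of the 5 sites in the pooled list lay within 1 SD of its replicate mean, but that list was made from the same 3 replicates. Means with a replicate left out cannot move by more than 1 SD. Neither comparison shows anything on stability. No paired analysis was possible because there is only 1 group. Depth is unknown, so no counting error could be given, and a region missing from a list does not show that binding is absent. Embryos of 0 to 24 h hold many cell types, and binding in few cells and weak binding in many cannot be told apart.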
